A study of Rattus norvegicus with 8 samples.

Results

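The genes of the Wnt pathway were followed through the development of the rat pineal gland. They were taken by gene symbol: the Wnt ligands, the R-spondins, the secreted antagonists (Dkk, Sfrp, Frzb and Wif1), the frizzled receptors with Lrp5 and Lrp6, the cytoplasmic relay (Dvl, Axin, Apc and Ctnnb1) and the transcription factors Lef1 and Tcf7 with its relatives. This choice gave 47 genes of the 16462 gene symbols measured, each with 1 transcript. They were 17 ligands, 3 R-spondins, 9 secreted antagonists, 9 receptors, 7 cytoplasmic components and 2 transcription factors. Fzd3, Fzd7, Fzd10, Sfrp1, Tcf7, Tcf7l1, Wnt2, Wnt3a and Rspo4 were not analysed here.

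RNA came from pineal glands of Sprague-Dawley rats from the fetus on embryonic day 21 (E21) to the young adult on postnatal day 40 (P40), with days 5 and 20 between them (P5 and P20), collected at mid-day (zeitgeber time 7, in hours) and at mid-night (zeitgeber time 19). The labels name no genetic change and no treatment beyond a cycle of light and dark. Each age and time was 1 library from a pool of animals, which held 13 (mid-day) and 15 (mid-night) animals for E21, 17 and 19 for P5, 13 and 10 for P20, and 3 and 3 for P40. Levels are in FPKM (fragments relative to transcript length and to all mapped fragments of the library), so they can be compared between genes per length. A pair of values for an age gives mid-day first and mid-night second.

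Wnt ligands are secreted lipid-modified proteins. They bind frizzled receptors together with the co-receptors Lrp5 and Lrp6. Dishevelled (Dvl) proteins then relay the signal and the destruction complex, built on Axin and Apc, stops marking beta-catenin (Ctnnb1) for degradation, so that beta-catenin enters the nucleus and binds TCF/LEF transcription factors. Dkk proteins block the co-receptors, Sfrp, Frzb and Wif1 bind the ligands, and R-spondins strengthen the signal by keeping frizzled receptors on the cell surface. The pathway patterns the dorsal midline of the embryonic brain, from which the pineal gland grows.

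Of 10 pineal markers, all were found, and their summed level ran from 835 to 870 FPKM at E21 and from 2837 to 5377 FPKM at the later ages. Libraries held 8598 to 9533 transcripts at 1 FPKM or more, and their depth relative to the deepest library lay between 0.43 (P20 mid-day) and 1.0 (P40 mid-night). The P5 mid-night library stood apart in choroid plexus markers (14 of 14 found): their sum was 18374 FPKM there, against 638 to 3224 FPKM in the other 7 libraries, mostly from Ttr at 17323 FPKM. P5 mid-day had the next highest sum, at 3224 FPKM, so both P5 libraries were raised. With 1 pooled library for each age and time, no spread between like libraries could be measured. P-values rest instead on how far the difference of mid-night from mid-day varied between ages fitted together. A difference between day and night that itself changes with age is counted there as spread. In whole glands, fewer cells of a type and less RNA per cell cannot be told apart.

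More Wnt pathway genes were low in the mature gland than in the fetal one. At least 1 FPKM was reached by 25 of the 47 genes in each E21 library and by 18 in each P40 library. Of all 16932 transcripts, 9263 and 9328 reached it at E21 and 8844 and 8723 at P40. In limma's test of P40 against E21 on log2(FPKM + 1), with Benjamini-Hochberg adjusted p under 0.05, 14 of the 29 genes tested fell and 1 rose. The background was 26.8% of 9960 transcripts lower and 16.1% higher. The median difference was -0.66 on the log2 scale over the 29 genes and -0.18 over all transcripts, and 25 of the 29 genes lay below 0. Only genes that reached 1 FPKM in 2 or more libraries were tested, which left out 18 of the 47. Some of the 29 were kept only through the ages where they were high, so these counts do not speak for the 47. Dkk2 and Rspo2 reached 1 FPKM only at E21. Sfrp2, Fzd8, Rspo3 and Wnt9a did so only at E21 and P5, and Wnt16, Wif1 and Rspo1 only at P5 and P20. The filter thus favoured their calls against an age where they lay below 1 FPKM. Among the 23 genes with a mean of at least 1 FPKM over all libraries, 14 fell and 1 rose. Such a mean can also be reached through the ages where a gene is high, so this cut does not remove that selection. The share of all transcripts at this cut was not computed. Centring each library on its median moved the median of all transcripts to 0.01 and that of the 29 genes to -0.47, with 13 lower and 2 higher (Fzd4 and Wif1). With that centring 20.1% of all transcripts were lower and 21.8% higher, so that 52% of all calls were higher, against 37.5% without it. Leaving out 1 library at a time gave between 9 genes lower (without E21 mid-night) and 17 (without either P20 library).

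**Figure D1:**
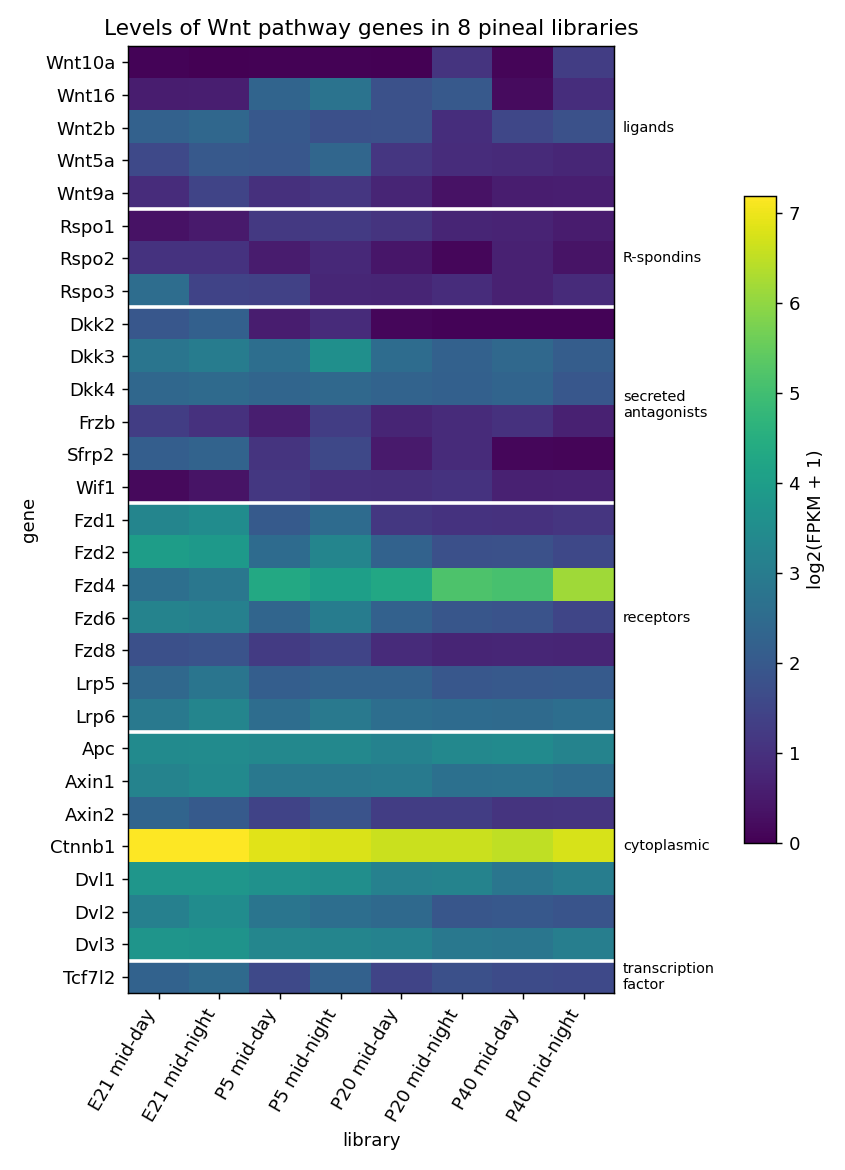
Level of the tested Wnt pathway genes in each of the 8 libraries, in order of age, grouped by role. Most rows are highest at E21, while Fzd4 and Wnt10a are highest at P40 and Wnt16 at P5.

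By the mean of both libraries of an age, 22 of the 29 genes (75.9%) were highest at E21, against 45.9% of all transcripts tested. The filter fixed this outcome for Dkk2 and Rspo2, which reached 1 FPKM only at E21. It also favoured E21 or P5 for Sfrp2, Fzd8, Rspo3 and Wnt9a, which reached 1 FPKM only at those ages. These shares therefore do not speak for the 47 genes. At P5 5 genes were highest (Dkk3, Rspo1, Wif1, Wnt16 and Wnt5a), 0 at P20, and 2 at P40 (Fzd4 and Wnt10a). The test over all 4 ages called 14 of the 29 genes, against 36.4% of all transcripts, and 9 without E21 mid-day.

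**Figure D2:**
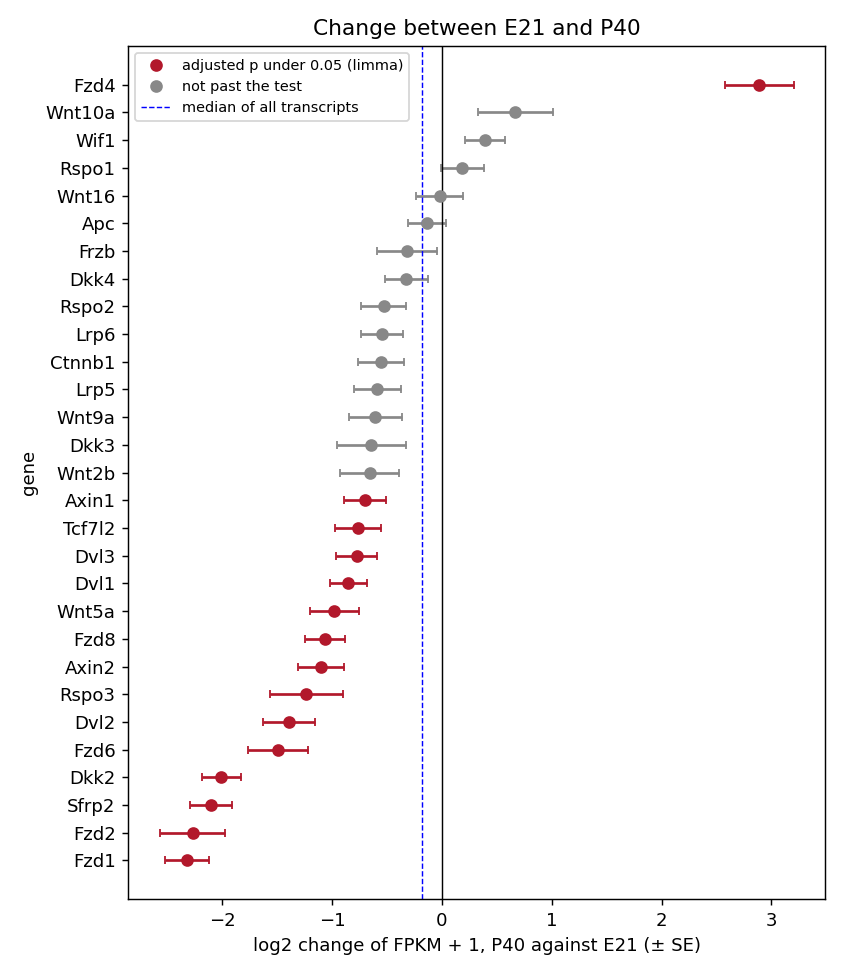
Difference of P40 from E21 on the log2(FPKM + 1) scale for each gene tested, with its standard error, ordered by size (red: adjusted p under 0.05; dashed line: median of all transcripts). Fzd4 lies alone on the right at 2.89, and Fzd1, Fzd2, Sfrp2 and Dkk2 lie lowest, at -2.0 or below.

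Among the ligands, 12 of the 17 stayed below 1 FPKM in every library and 5 were tested. Wnt16, a ligand known from bone and joint tissue, stood at 0.486 and 0.512 FPKM at E21, 3.94 and 5.66 FPKM at P5, 2.46 and 3.00 FPKM at P20, and 0.154 and 0.901 FPKM at P40. It was thus highest in both P5 libraries and next highest in both P20 libraries, with the E21 and P40 libraries overlapping below. Its rise from E21 to P5 was 1.94 ± 0.22 (log2, SE; adjusted p = 0.00186, limma). The difference of P40 from P20 was -1.33 (adjusted p = 0.147) and missed the threshold. Wnt16 lies at chr4:48609677-48620317 (rat build rn4, as are all gene positions here). It was 1 of 4 genes higher at P5 than at E21, where the background was 8.29%, and 3 genes were lower against 6.84%. Wnt16, Wif1 and Rspo1 were kept for testing only through P5 and P20, which favoured a rise from E21. Of the 4, only Fzd4 reached 1 FPKM in all 8 libraries. Dkk2, among those lower, was kept only through E21, which favoured its fall. Without E21 mid-day, E21 mid-night or P5 mid-day 1 gene was higher, and without P5 mid-night 2 were; the number lower was 0 without E21 mid-day and 1 without E21 mid-night or P5 mid-day.

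Wnt5a, the main ligand of signalling that does not run through beta-catenin, had 2.0 and 2.98 FPKM at E21, 2.83 and 4.16 FPKM at P5, 1.21 and 0.867 FPKM at P20, and 0.796 and 0.715 FPKM at P40. The E21 and P5 libraries overlapped, and all 4 lay above the 4 later ones. Wnt5a fell from P5 to P20 by 1.13 ± 0.23 (log2, SE; adjusted p = 0.027, limma). That step had 2 of the 29 genes lower against a background of 5.99%, and 0 higher against 1.02%; at an unadjusted p under 0.05 the counts were 8 and 0, beside 2047 and 399 of 9960 transcripts. P40 was lower than E21 by -0.98 ± 0.23 (adjusted p = 0.0108). The P5 to P20 call was lost without any 1 of the 4 libraries of those ages (adjusted p 0.0598 to 0.243) and with no filter (0.0723), and the P40 call without E21 mid-night (0.0856) or P40 mid-night (0.0885). Wnt2b, a ligand of the beta-catenin branch, lay between 0.935 and 4.26 FPKM, highest at E21, and its difference of P40 from E21 was -0.66 (adjusted p = 0.0856). Wnt9a reached 1 FPKM only in the mid-night libraries of E21 and P5.

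**Figure D3:**
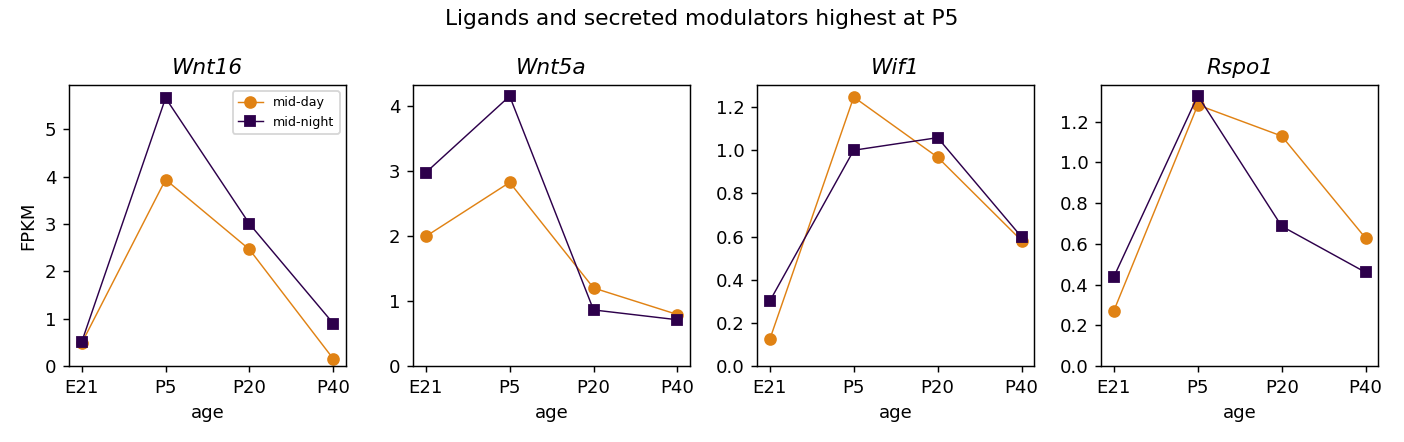
Levels of Wnt16, Wnt5a, Wif1 and Rspo1, whose highest mean was at P5, in FPKM against age, with a point for each library and a separate axis for each gene. Wnt16 stands above 3 FPKM in both P5 libraries and below 1 FPKM at E21 and P40.

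R-spondins were low and moved at different ages. Rspo3 had 4.97 and 1.73 FPKM at E21, 1.62 and 0.717 FPKM at P5, 0.688 and 0.898 FPKM at P20, and 0.594 and 0.849 FPKM at P40. The E21 mid-day library was the highest by far, and it was 2-fold or more above its mid-night partner in FPKM + 1, the only Wnt pathway gene so far apart at E21 (1 of 26 lower at mid-night, against 1.52% of transcripts, and 0 higher, against 0.868%; no test). Rspo3 fell from E21 to P40 by 1.23 ± 0.33 (log2, SE; adjusted p = 0.0194, limma). The call was lost without E21 mid-day (0.143) or P40 mid-day (0.145) and with median centring (0.0573) or quantile normalization (0.0783). Rspo1 had 0.273 and 0.439 FPKM at E21, 1.28 and 1.33 FPKM at P5, 1.13 and 0.687 FPKM at P20, and 0.629 and 0.461 FPKM at P40. It was lowest at E21 and rose to P5 by 0.77 ± 0.19 (log2, SE; adjusted p = 0.0347), a call lost without any 1 of the E21, P5 or P40 libraries (0.0592 to 0.241). Rspo2 lay between 0.0854 and 1.08 FPKM and reached 1 FPKM only at E21.

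Among the secreted antagonists, Dkk2 and Sfrp2 fell most. Dkk2, a co-receptor ligand of the Dickkopf family, had 2.87 and 3.58 FPKM at E21, 0.493 and 0.841 FPKM at P5, 0.0847 and 0.0478 FPKM at P20, and 0.0487 and 0.0475 FPKM at P40. Sfrp2, a decoy that binds Wnt ligands, had 3.46 and 3.89 FPKM at E21, 1.13 and 1.94 FPKM at P5, 0.437 and 0.859 FPKM at P20, and 0.101 and 0.0771 FPKM at P40. Both were highest in the E21 libraries, next in the P5 libraries and lower at P20 and P40, with no overlap between E21, P5 and the later ages. From E21 to P40 Dkk2 fell by 2.0 ± 0.18 (log2, SE; adjusted p = 0.000189, limma). Sfrp2 fell by 2.10 ± 0.19 (adjusted p = 0.000198). On that scale the added 1 FPKM makes the difference smaller than the ratio of the levels, which was 67.0 for Dkk2 and 41.4 for Sfrp2 (E21 over P40, means of 2 libraries). The step from E21 to P5 was -1.34 ± 0.18 for Dkk2 (adjusted p = 0.00375) and -0.90 ± 0.19 for Sfrp2 (adjusted p = 0.0205). The Sfrp2 step was lost without any 1 of the E21 libraries (0.133 and 0.0768) or P5 libraries (0.149 and 0.0553) and with a pseudocount of 0.1 (0.076). Dkk2 was kept for testing only through E21, so it had to differ. Sfrp2 was kept only through E21 and P5, which favoured a fall to P40.

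Wif1, another secreted ligand-binding inhibitor, went the other way. It had 0.125 and 0.302 FPKM at E21, 1.25 and 1.0 FPKM at P5, 0.968 and 1.06 FPKM at P20, and 0.582 and 0.599 FPKM at P40. Both E21 libraries were the lowest, and the P5 and P20 libraries overlapped above the P40 ones. Its rise from E21 to P5 was 0.81 ± 0.18 (log2, SE; adjusted p = 0.0222, limma), lost without any 1 of the E21 libraries (0.176 and 0.0692) or P5 libraries (0.148 and 0.0567) and with quantile normalization (0.0595). Dkk3, a divergent Dickkopf relative, had 5.98 and 7.11 FPKM at E21, 5.00 and 10.9 FPKM at P5, 4.81 and 3.74 FPKM at P20, and 4.41 and 3.31 FPKM at P40. The P5 mid-night library was its highest, and no comparison of ages passed for it (P40 against E21 -0.64, adjusted p = 0.138). Dkk4 (2.85 to 4.65 FPKM) and Frzb (0.520 to 1.49 FPKM) did not pass between E21 and P40 either (adjusted p 0.213 and 0.371).

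Among the 7 frizzled genes analysed, the leading receptor changed. Fzd4, the receptor of Norrin that is best known from retinal vessels, had 5.22 and 6.18 FPKM at E21, 19.2 and 15.7 FPKM at P5, 18.9 and 35.3 FPKM at P20, and 33.2 and 70.9 FPKM at P40. Every later library exceeded both E21 libraries, and P40 mid-night was the highest of all. The mean rose from 5.70 ± 0.678 FPKM at E21 to 52.0 ± 26.6 FPKM at P40 (SD, n = 2 libraries each, 1 mid-day and 1 mid-night), a ratio of 9.13. The difference was 2.89 ± 0.31 (log2, SE; adjusted p = 0.000391, limma), and the step from E21 to P5 was 1.46 ± 0.31 (adjusted p = 0.0201). That step was lost without E21 mid-day (0.0524), E21 mid-night (0.0891) or P5 mid-day (0.158) and with no filter on low values (0.0553). Fzd4 lies at chr1:145953760-145957666.

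Other frizzled genes fell. Fzd1 (chr4:25994423-25998821) had 8.70 and 10.3 FPKM at E21, 3.10 and 4.71 FPKM at P5, 1.26 and 1.09 FPKM at P20, and 1.05 and 1.14 FPKM at P40. Fzd2 (chr10:91709222-91711132) had 14.9 and 13.6 FPKM at E21, 4.66 and 8.70 FPKM at P5, 3.83 and 2.34 FPKM at P20, and 2.44 and 1.92 FPKM at P40. For both, the E21 libraries were highest and the P5 libraries next, without overlap. Fzd6 had 8.21 and 7.71 FPKM at E21, 4.03 and 7.18 FPKM at P5, 3.67 and 2.83 FPKM at P20, and 2.56 and 1.85 FPKM at P40. Fzd8 had 2.41 and 2.61 FPKM at E21, 1.38 and 1.79 FPKM at P5, 0.832 and 0.669 FPKM at P20, and 0.691 and 0.674 FPKM at P40. These receptors too had their highest libraries at E21 and their lowest at P20 or P40. From E21 to P40 Fzd1 fell by 2.32 ± 0.20 (log2, SE; adjusted p = 0.000162, limma). Fzd2 fell by 2.27 ± 0.30 (adjusted p = 0.000927), Fzd6 by 1.49 ± 0.27 (0.0037) and Fzd8 by 1.06 ± 0.18 (0.00298). Fzd1 also fell in each of the earlier steps, from E21 to P5 by 1.11 ± 0.20 (adjusted p = 0.0112) and from P5 to P20 by 1.15 ± 0.20 (0.0178). The first step was lost without E21 mid-day (0.0588), E21 mid-night (0.0594) or P5 mid-day (0.0984). The second was lost without P5 mid-night (0.181), P20 mid-day (0.058) or P20 mid-night (0.148) and with no filter (0.0574). Fzd5 and Fzd9 stayed below 1 FPKM everywhere.

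**Figure D4:**
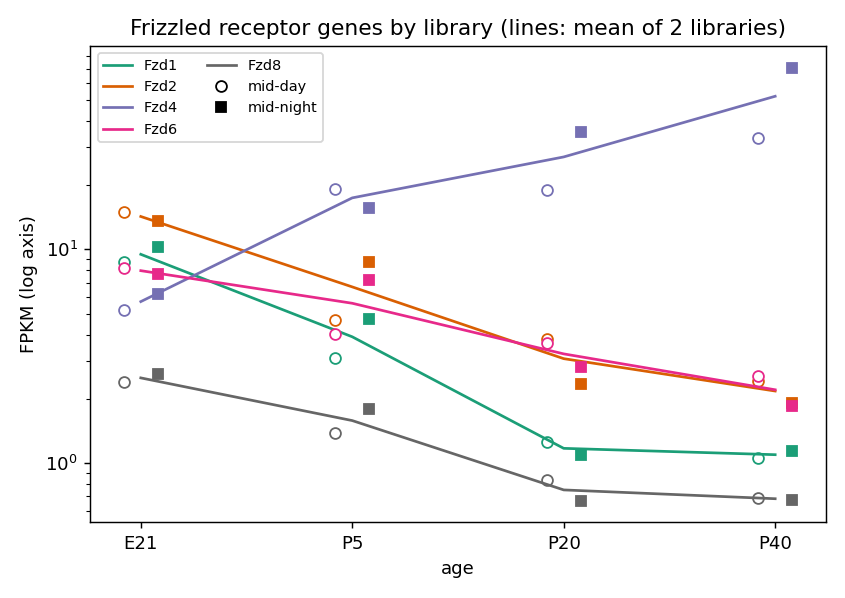
Levels of the 5 tested frizzled receptors in each library, in FPKM on a log axis (open circles mid-day, filled squares mid-night, lines the mean of both). Fzd4 climbs from 5.22 to 70.9 FPKM between E21 mid-day and P40 mid-night, while Fzd1, Fzd2, Fzd6 and Fzd8 descend.

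The sum of the 7 frizzled genes was 39.7 and 40.7 FPKM at E21, 32.4 and 38.4 FPKM at P5, 28.7 and 42.3 FPKM at P20, and 40.0 and 76.7 FPKM at P40. Fzd4 made up 13.1% and 15.2% of it at E21, then 59.1% and 40.9% of the P5 sum, 65.8% and 83.4% of the P20 sum and 82.9% and 92.4% of the P40 sum. Without Fzd4 the sum of the other 6 went from 34.5 FPKM in both E21 libraries to 6.83 and 5.87 FPKM at P40. So the summed level at P40 mid-day was close to that at E21, and its makeup was not. Fzd3, Fzd7 and Fzd10 were not analysed, so the sums and shares hold for these 7 genes only. Of the co-receptors, Lrp6 had 6.5 and 8.62 FPKM at E21, 4.95 and 6.53 FPKM at P5, 5.06 and 4.69 FPKM at P20, and 4.62 and 5.07 FPKM at P40. Lrp5 lay between 2.84 and 5.87 FPKM. P40 against E21 missed the threshold for both, at -0.54 for Lrp6 (adjusted p = 0.0513, limma) and -0.59 for Lrp5 (adjusted p = 0.055).

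All 7 cytoplasmic components were tested, and the 3 dishevelled genes and both axins fell from E21 to P40. Dvl2 had 7.72 and 10.3 FPKM at E21, 5.93 and 5.03 FPKM at P5, 4.49 and 2.80 FPKM at P20, and 2.97 and 2.62 FPKM at P40. Dvl1 had 12.8 and 12.7 FPKM at E21, 11.5 and 10.8 FPKM at P5, 8.01 and 8.32 FPKM at P20, and 6.05 and 7.22 FPKM at P40. Dvl3 had 12.5 and 12 FPKM at E21, 8.92 and 8.71 FPKM at P5, 8.02 and 6.33 FPKM at P20, and 6.09 and 7.44 FPKM at P40. In all 3 the E21 libraries were the highest. The difference of P40 from E21 was -1.39 ± 0.24 for Dvl2 (log2, SE; adjusted p = 0.00279, limma), -0.85 ± 0.17 for Dvl1 (0.00573) and -0.78 ± 0.19 for Dvl3 (0.0132). The Dvl1 call was lost without P40 mid-day (0.0633), and that of Dvl3 without E21 mid-day (0.0665), E21 mid-night (0.0578) or P40 mid-day (0.126).

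Axin2 is both a scaffold of the destruction complex and a gene that beta-catenin itself switches on in many tissues, so it is widely read as a reporter of the pathway. It had 4.02 and 3.13 FPKM at E21, 1.74 and 2.55 FPKM at P5, 1.46 and 1.48 FPKM at P20, and 1.10 and 1.15 FPKM at P40. The E21 libraries were highest, then P5, then P20, then P40, with no overlap between the ages. The mean was 3.58 ± 0.627 FPKM at E21 and 1.12 ± 0.0323 FPKM at P40 (SD, n = 2 libraries each). Axin2 fell by 1.10 ± 0.21 (log2, SE; adjusted p = 0.00443, limma). Its paralogue Axin1, the constant scaffold of the complex, had 8.25 and 9.58 FPKM at E21, 6.31 and 6.28 FPKM at P5, 6.84 and 5.24 FPKM at P20, and 5.46 and 4.76 FPKM at P40, and fell by 0.70 ± 0.19 (adjusted p = 0.021). The E21 libraries of Axin1 lay above all others. Its call was lost without E21 mid-night (0.162), P40 mid-day (0.0814) or P40 mid-night (0.135).

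Axin2 is the one gene here whose promoter holds both words of the TCF/LEF site that were searched for, and its sequence is shown for that reason, beside those of Fzd4 and Wnt10a, the genes that were higher at mid-night at the later ages. Each line gives the 250 bases before the start of the gene, 5′ to 3′ on the plus strand of build GRCr8 (RefSeq), with a match in capitals: Axin2 at chr10:94398535-94398784, Fzd4 at chr1:152692257-152692506 and Wnt10a at chr9:83798344-83798593.
Axin2: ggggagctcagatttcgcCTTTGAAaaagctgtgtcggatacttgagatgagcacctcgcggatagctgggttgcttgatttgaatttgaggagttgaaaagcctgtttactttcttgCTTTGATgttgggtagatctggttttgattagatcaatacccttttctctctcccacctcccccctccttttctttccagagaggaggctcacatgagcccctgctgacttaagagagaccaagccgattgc
Fzd4: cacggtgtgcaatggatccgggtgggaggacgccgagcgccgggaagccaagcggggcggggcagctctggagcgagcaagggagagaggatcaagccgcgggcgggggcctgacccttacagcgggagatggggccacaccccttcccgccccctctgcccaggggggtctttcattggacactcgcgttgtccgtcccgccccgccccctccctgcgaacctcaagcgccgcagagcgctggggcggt
Wnt10a: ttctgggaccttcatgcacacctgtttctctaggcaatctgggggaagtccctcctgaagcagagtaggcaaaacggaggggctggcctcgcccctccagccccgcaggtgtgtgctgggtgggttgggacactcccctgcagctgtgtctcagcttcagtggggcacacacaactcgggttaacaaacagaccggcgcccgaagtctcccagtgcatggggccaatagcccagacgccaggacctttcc
RefSeq promoters were matched for 34 of the 47 genes. The words were CTTTGAT and CTTTGAA, searched on both strands in 300 bases (250 before to 50 after the start). CTTTGAT was in 3.63% of 33469 promoters and in 1 of the 34 (Axin2). CTTTGAA was in 5.4% of all and in 3 of the 34 (Axin2, Dkk1 and Wnt8a). Both words together were in 0.302% of all promoters and in 1 of the 34. At least 1 of the words was in 8.73% of all promoters and in 3 of the 34, close to the share of all promoters. In Axin2 they begin 232 bases (CTTTGAA) and 132 bases (CTTTGAT) before the start, on the gene's own strand. The word TGACGTCA, the cyclic AMP response element, was searched after the levels had been seen and was in 1.83% of all promoters and in 0 of the 34. Matches are letters in a window and show no binding.

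Apc, the other scaffold of the complex, had 9.76 and 10.1 FPKM at E21, 9.21 and 9.17 FPKM at P5, 8.10 and 9.32 FPKM at P20, and 9.74 and 8.22 FPKM at P40. Both E21 libraries were just above the other 6, which overlapped between ages, and P40 against E21 was -0.13 (adjusted p = 0.561, limma). Ctnnb1, which encodes beta-catenin and also serves cell junctions, was the most abundant of the 47 genes, with 145 and 142 FPKM at E21, 115 and 110 FPKM at P5, 97.0 and 97.6 FPKM at P20, and 89.1 and 106 FPKM at P40. Both E21 libraries were highest and both P5 libraries next, but P40 against E21 missed the threshold at -0.55 (adjusted p = 0.0652).

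Of the transcription factors, Tcf7l2 had 3.75 and 4.61 FPKM at E21, 2.01 and 3.66 FPKM at P5, 1.77 and 2.39 FPKM at P20, and 2.09 and 2.01 FPKM at P40. Its E21 libraries were the highest, with P5 mid-night just under them. It fell from E21 to P40 by 0.76 ± 0.21 (log2, SE; adjusted p = 0.0218, limma), a call lost without E21 mid-day (0.101), E21 mid-night (0.0839) or P40 mid-night (0.191) and with quantile normalization (0.0595). Lef1 had 1.15 and 0.918 FPKM at E21, 0.191 and 0.709 FPKM at P5, 0.142 and 0.0644 FPKM at P20, and 0.0460 and 0.0754 FPKM at P40. Both E21 libraries were above all others, but only 1 library reached 1 FPKM and Lef1 was not tested.

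The other 17 untested genes stayed below 1 FPKM in all 8 libraries. The highest of them were Sfrp4 (0.755 FPKM in its highest library), Wnt3 (0.724 FPKM), Wnt11 (0.721 FPKM), Sfrp5 (0.551 FPKM) and Wnt5b (0.525 FPKM). Wnt8a was listed at 0 in every library, and 5 genes (Wnt1, Wnt7b, Wnt8b, Wnt9b and Wnt8a) stayed under 0.1 FPKM.

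Markers of other cell types also differed between the ages, in both directions. From E21 to P40, 7 of 10 tested markers of matrix and meningeal fibroblasts fell and 1 rose (26.8% of all transcripts fell and 16.1% rose), and their summed level was 884 and 1245 FPKM at E21 and 186 and 154 FPKM at P40. Endothelial markers summed to 53.8 and 70.7 FPKM at E21 and 24.2 and 20.1 FPKM at P40 (6 of 8 fell), with Cldn5 under 0.1 FPKM everywhere. Markers of dividing cells summed to 187 and 140 FPKM at E21 and 10.1 and 21.5 FPKM at P40 (9 of 9 fell). Pineal markers went the other way, 6 of 10 rising and 0 falling. Microglia and macrophage markers rose in 4 of 8 and fell in 1, with sums of 28.1 and 32.2 FPKM at E21 and 45.1 and 60.2 FPKM at P40. Erythroid markers fell in 3 of 5, from 12274 and 7118 FPKM to 1357 and 1711 FPKM. Astrocyte markers rose in 4 of 9 and fell in 4, those of habenula and thalamus rose in 2 of 3, and those of oligodendrocytes rose in 1 of 5. Most of the habenula and thalamus sum was Chrnb4, with 38.5 and 35.5 FPKM at E21 and 137 and 110 FPKM at P40. In that list Gpr151, Tac2 and Gbx2 stayed under 1 FPKM in every library, and Pou4f1 and Nwd2 were not found. Its sum thus does not speak for that tissue. Of 5 markers of smooth muscle and pericytes 3 fell, Schwann cell markers fell in 1 of 2, and choroid plexus markers rose in 4 of 13 and fell in 3. Choroid plexus markers differed more at P5. From E21 to P5 12 of the 13 rose and 0 fell (8.29% of all transcripts rose and 6.84% fell). From P5 to P20 10 fell and 1 rose (5.99% fell and 1.02% rose). The part of all these cell types in the levels of the Wnt pathway genes was not tested. Over the 8 libraries the summed FPKM of these lists ranged as follows: smooth muscle and pericytes 17.9 to 52.2, microglia and macrophages 18.6 to 60.2, astrocytes 170 to 284, oligodendrocytes 16.2 to 38.8, Schwann cells 6.46 to 20.2, habenula and thalamus 43.6 to 150 and erythroid cells 1357 to 12274.

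The steps between successive ages placed most calls early, for these genes and for all transcripts alike. From E21 to P5 4 of the 29 genes rose and 3 fell, beside 8.29% and 6.84% of all transcripts. From P5 to P20 0 rose and 2 fell, beside 1.02% and 5.99%. Between P20 and P40 no Wnt pathway gene passed (0 of 29 in each direction, with 0% of all transcripts; limma). At an unadjusted p under 0.05 that step had 1 gene higher and 2 lower, beside 489 and 180 of 9960 transcripts.

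At P5, 11 of the 26 genes at 1 FPKM or more in either library were at least 1.25-fold higher at mid-night (FPKM + 1), which is 42.3%, against 20.2% of all transcripts, and 1 (Rspo3) was lower by as much, against 7.11%. By the same measure 5 of 26 were higher and 1 lower at E21 (11.2% and 16.1% of transcripts), 2 of 22 higher and 6 lower at P20 (12.9% and 35.0%), and 2 of 19 higher and 3 lower at P40 (16.2% and 22.5%). At P5 Dkk3, Fzd2 and Fzd6 were the farthest apart, at 1.98-fold, 1.71-fold and 1.63-fold. No gene was 2-fold apart (0 higher against 1.83% of transcripts, 0 lower against 0.341%). With 1 library at each time this has no test. The same library held the choroid plexus markers at 18374 FPKM, against 3224 FPKM at P5 mid-day, and their part was not tested. Leaving out both P5 libraries left 14 genes lower and 1 higher at P40 than at E21. The fit takes the size of that difference from the E21 and P40 libraries alone. Leaving out P5 therefore changed only the filter, the spread and the p-values, and cannot speak to the part of the choroid plexus markers.

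At the later ages Fzd4 was higher at mid-night than at mid-day, and so was Wnt10a, which was kept for testing only through its P20 and P40 mid-night libraries and so had to differ. In a fit that gave the younger ages and the older ages a night effect each, these were the 2 of 29 genes called higher at mid-night at P20 and P40 (against 2.8% of all transcripts) and 0 were lower (against 1.59%). At E21 and P5 0 passed in either direction, where 0.0201% of transcripts were higher and 0.01% lower; at an unadjusted p under 0.05 the counts were 2 and 1, beside 397 and 169 of 9960 transcripts. With 1 night effect over all 4 ages 0 passed, as did 0% of all transcripts (unadjusted, 1 higher and 0 lower beside 470 and 541 transcripts).

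Wnt10a, a ligand of the beta-catenin branch known from teeth, hair and skin, was listed at 0.045 and 0 FPKM at E21, 0.0275 and 0.0228 FPKM at P5, 0 and 1.13 FPKM at P20, and 0.0673 and 1.48 FPKM at P40. Both later mid-night libraries were above 1 FPKM and the other 6 were under 0.1 FPKM. The night effect at P20 and P40 was 1.15 ± 0.17 (log2, SE; adjusted p = 0.0114, limma). The call was lost without P20 mid-day (0.115) or P40 mid-day (0.142), and without either mid-night library the gene was not tested. Its size depended on the pseudocount, at 3.43 with 0.1 FPKM and 0.33 with 5 FPKM. Wnt10a lies at chr9:74124403-74137508, 6.4 kb from Wnt6, another ligand, at chr9:74104364-74117995. Wnt6 had 0.241 and 0.232 FPKM at P20 and 0.307 and 0.114 FPKM at P40, so its mid-night libraries were not the higher ones.

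Fzd4 was 1.87 times as high at mid-night as at mid-day at P20 (35.3 against 18.9 FPKM) and 2.13 times at P40 (70.9 against 33.2 FPKM). At E21 and P5 its libraries were close, with mid-night above at E21 and below at P5. The night effect at P20 and P40 was 0.97 ± 0.19 (log2, SE; adjusted p = 0.0287, limma). It was lost without P20 mid-day (0.167), P20 mid-night (0.165), P40 mid-day (0.204) or P40 mid-night (0.2) and with no filter (0.101). Tested directly, the night effect at P20 and P40 minus that at E21 and P5 was 1.0 ± 0.26 for Fzd4 (adjusted p = 0.173) and 1.19 ± 0.24 for Wnt10a (adjusted p = 0.0916). So neither night effect was shown to differ between the ages: 0 of 29 passed in either direction, against 0.612% of transcripts higher and 0.141% lower (unadjusted, 3 and 2 beside 460 and 839 transcripts). At single ages, without a test, Wnt10a was at least 2-fold higher at mid-night (FPKM + 1) at P20, 1 of 22 genes against 2.76% of transcripts, with 0 lower against 3.06%. At P40 Wnt10a and Fzd4 were, 2 of 19 against 3.4%, with 0 lower against 1.53%. Only genes at 1 FPKM or more in either library of the age were counted. Wnt10a entered through mid-night alone, with 0 FPKM at P20 mid-day and 0.0673 FPKM at P40 mid-day. Its place in the P20 count was thus fixed by that rule, and its place in the P40 count was favoured by it.

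**Figure D5:**
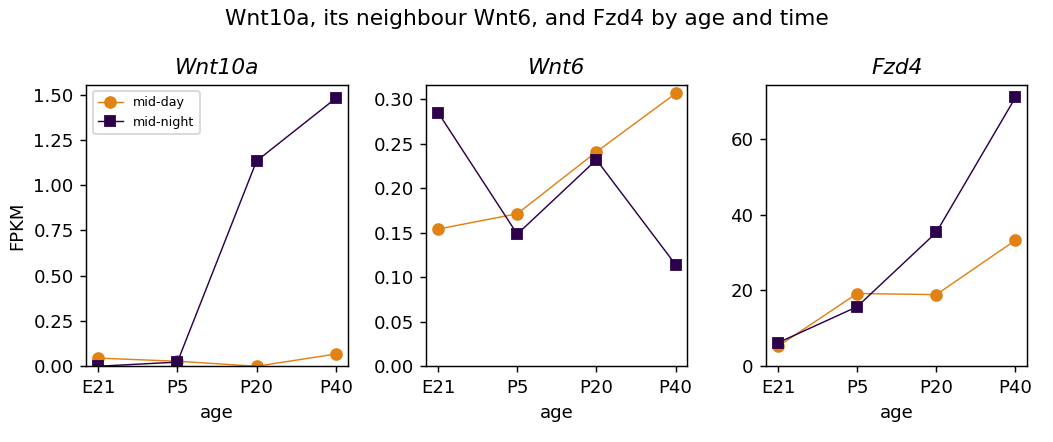
Mid-day and mid-night levels of Wnt10a, its neighbour Wnt6 and Fzd4 at each age, in FPKM, with a separate axis for each gene. At P20 and P40 the mid-night library is the higher one for Wnt10a and Fzd4 and not for Wnt6.

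Genes of the pathway outside the families above were read from lists of their roles. Their counts for P40 against E21 stand beside the same background, 26.8% of all transcripts lower and 16.1% higher with a median of -0.18. Of 10 tested transcripts of other receptors and receptor turnover, 5 fell from E21 to P40 and 1 rose, with a median of -0.71. Gpc3, a glypican that binds Wnt ligands, had 10.2 and 16.4 FPKM at E21, 11.5 and 19.6 FPKM at P5, 3.28 and 3.21 FPKM at P20, and 3.76 and 1.3 FPKM at P40, and fell by 2.08 ± 0.39 (log2, SE; adjusted p = 0.00451, limma). Its 4 earlier libraries all lay above the 4 later ones. Ptk7, a co-receptor of planar cell polarity, fell by 1.72 ± 0.24 (adjusted p = 0.00115), and Lgr4, an R-spondin receptor, by 1.36 ± 0.19 (0.00133). Tspan12, which helps Fzd4 respond to Norrin, had 6.45 and 7.27 FPKM at E21 and 11.2 FPKM in both P40 libraries, and rose by 0.64 ± 0.22 (adjusted p = 0.0453). That rise was lost under 7 of 16 alternatives, among them without any 1 of the E21, P5 or P40 libraries (adjusted p up to 0.192). Norrin itself (Ndp) stayed between 0.041 and 0.312 FPKM.

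Nuclear partners of beta-catenin had 7 of 15 tested lower and 1 higher, with a median of -0.61. Bcl9, a co-activator, fell by 1.81 ± 0.24 (log2, SE; adjusted p = 0.000996, limma) and Ctnnbip1, which keeps beta-catenin from TCF proteins, by 1.59 ± 0.19 (0.000564). The co-repressor Tle3 fell by 1.24 ± 0.21 (0.00286) and the repressor Hbp1 by 1.19 ± 0.23 (0.00479), the latter call being lost without P40 mid-night (0.0521). Activators and repressors were thus both among those that fell. Of the destruction complex and other cytoplasmic regulators, 2 of 18 tested transcripts fell and 2 rose, with a median of -0.1. Csnk1e, a casein kinase, fell by 1.02 ± 0.19 (adjusted p = 0.00418) and Btrc, the ubiquitin ligase subunit that recognises marked beta-catenin, rose by 0.72 ± 0.17 (0.0112). The Btrc call was lost without E21 mid-day, E21 mid-night or P40 mid-night (adjusted p up to 0.113).

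Igfbp4, which binds insulin-like growth factors and also inhibits Wnt receptors, was the 1 of 2 tested genes among other secreted antagonists that fell, by 2.13 ± 0.22 (log2, SE; adjusted p = 0.000337, limma). The other, Sostdc1, had 0.394 and 4.86 FPKM at E21, 14.8 and 65.7 FPKM at P5, and under 1 FPKM in all 4 later libraries. It was highest in the P5 mid-night library, as most choroid plexus markers were (not F5 and Slc4a5). Of 9 planar cell polarity genes 4 fell and 1 rose (median -0.5): Daam1, a formin, fell by 0.84 ± 0.20 (adjusted p = 0.0116) and Prickle2 rose by 1.02 ± 0.22 (0.00848). Both calls were lost without E21 mid-night or P40 mid-night (adjusted p up to 0.105 and 0.0931). Of 5 tested targets 2 rose and 1 fell (median -0.45). Ppard, a nuclear receptor, rose by 0.52 (adjusted p = 0.0477), a call lost under 11 of 16 alternatives, among them without any 1 of the 8 libraries. Of Wnt secretion genes only Porcn, which adds the lipid to Wnt ligands, was tested, and its difference was 0.41.

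Among these lists, Prickle1 and Tle1 were chosen after their values were seen, for their night levels. Prickle1, a planar cell polarity protein, had 1.91 and 7.25 FPKM at P20 and 2.49 and 14.5 FPKM at P40, a night effect of 1.83 ± 0.21 (log2, SE; adjusted p = 0.00394, limma). Tle1, a co-repressor of TCF proteins, had 9.47 and 2.42 FPKM at P20 and 9.36 and 3.46 FPKM at P40, a night effect of -1.42 ± 0.19 (adjusted p = 0.00704). Both mid-night libraries were on the same side of both mid-day libraries for each gene. With no filter the adjusted p was 0.052 for Prickle1 and 0.057 for Tle1, and without P20 mid-day or P20 mid-night that of Tle1 was 0.0901 and 0.0903.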

How the data were processed

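Polyadenylated RNA of pooled pineal glands was sequenced as paired ends in 8 libraries, 1 for each of 4 ages and 2 times of day. Per the submitters' processing notes, TopHat 1.3.1, Cufflinks 1.2.0 and genome build rn4 were used, and the authors deposited 1 FPKM value per RefSeq transcript. Filters, scaling beyond FPKM and strand handling are not given in the sources used here. Read counts were not used, so no counting intervals are given, and relative depth was taken from the smallest steps between FPKM values of short olfactory receptor transcripts. The deposited start positions were taken to count from 0, as the spans of olfactory receptor genes show (end minus start is a multiple of 3 for 99.7% of 1192), and were moved to count from 1. Near-identical paralogues could share fragments, which was not corrected.

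Values were taken as log2(FPKM + 1), which understates changes near or under 1 FPKM. The 9960 of 16932 transcripts that reached 1 FPKM in 2 or more libraries were fitted in R 4.3.3 by limma 3.58.1. Empirical Bayes with a trend and two-sided tests were used, with Benjamini-Hochberg adjustment over all transcripts fitted. The procedure was tested on simulated data for P40 against E21. It recovered 47 of 100 genes changed 2-fold and 86 of 100 changed 4-fold, with 4 false calls. The changed genes were drawn from those at higher levels, and no others of the 9960 were changed. In the real comparison 1602 transcripts were called higher and 2674 lower. The adjustment is stricter where few genes change, so the simulated rates do not measure recovery or false calls there. A gene that missed the threshold may still differ. The first fit held age and time of day (3 residual degrees of freedom) and the second age and separate night effects for the younger (E21, P5) and older (P20, P40) ages (2 residual degrees of freedom). A single age has 1 library at each time and no test.

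The Wnt pathway genes, the lists of other pathway genes and the marker lists (pineal gland, choroid plexus, endothelium, matrix and meningeal fibroblasts, smooth muscle and pericytes, microglia and macrophages, astrocytes, oligodendrocytes, Schwann cells, habenula and thalamus, erythroid cells, dividing cells) were chosen with earlier results of these data known. Values for every library are given for Wnt pathway genes past a test or at 5 FPKM or more in 2 libraries. From the other lists, genes past the test for P40 against E21 with at least 5 FPKM in 2 libraries are named, at most 4 of a list; Ndp, Sostdc1, Porcn, Prickle1 and Tle1 are named in addition, after their values were seen. Promoters came from RefSeq (GRCr8), matched by gene ID, and no GRCr8 position was set against rn4. Alternatives were pseudocounts of 0.1 and 5, no filter, a filter at 5 FPKM, quantile normalization, median centring, no term for time of day, and leaving out 1 library or both P5 libraries.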

Additional observations from a re-analysis of the deposited data

How the results depend on the processing

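Of 26 calls for single Wnt pathway genes, 11 passed under every alternative run: Axin2, Dkk2, Dvl2, Fzd1, Fzd2, Fzd4, Fzd6, Fzd8 and Sfrp2 for P40 against E21, and Dkk2 and Wnt16 for P5 against E21. The Dkk2 calls say nothing of stability, since Dkk2 was kept for testing only through E21 and could not be run without either E21 library. Sfrp2 and Fzd8 were kept only through E21 and P5, and Wnt16 only through P5 and P20. Their calls in this list set an age that let them in against one that did not. Over the 385 values of these calls under the alternatives, 329 kept direction and threshold, 56 missed the threshold and 0 changed sign. For 16 calls of other pathway genes, 224 of 254 values passed, 30 missed the threshold and 0 changed sign. A filter at 5 FPKM, which tests fewer transcripts, left 7 Wnt pathway genes changed with age, 7 lower at P40 than at E21, 1 higher and 1 lower at P5 than at E21, 1 lower at P20 than at P5, and 1 higher at night at P20 and P40. With no filter, 0 were lower at P20 than at P5 and 1 was higher at night at P20 and P40. Median centring gave 2 genes higher at P40 than at E21, and quantile normalization 5 lower at P5 than at E21; the cause was not tested. Without 1 library at a time, the genes called ran from 9 to 14 for age, 1 to 1 higher and 9 to 17 lower for P40 against E21, 1 to 4 higher and 0 to 3 lower for P5 against E21, 0 to 0 higher and 0 to 2 lower for P20 against P5, and 0 to 2 higher at night at P20 and P40. All other night counts and those of P40 against P20 were 0 to 0. A library left alone at its age was assumed to vary like the others. Quantile normalization moved the share of higher calls among all transcripts for P20 against P5 from 14.6% to 41.2%. Age was a term of both fits, so mid-night and mid-day were compared within ages. By replicate number, no paired analysis was possible because the labels give none and each group holds 1 pooled library. Depth limits low genes most in the P20 mid-day library, and levels under 1 FPKM are weakly resolved by log2(FPKM + 1).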
